A study of Mus musculus with 2 samples.

Results

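Of 26265 circular RNAs (circRNAs) with at least 1 read across their junction in intestinal cells of mice, 847 had at least 10 such reads in each of the study's 2 libraries. These 847 well covered circRNAs are described here. They are 3.22% of all circRNAs with a read and 19.4% of the 4375 that had a read in both libraries. The minimum was set on the reads that are compared below, so the ratios between the libraries are given as a description and not as a test.

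The cells came from the intestine of Lgr5GFP-CreERT2 mice aged 2 months and kept free of specific pathogens. In these animals GFP and a tamoxifen-inducible Cre are driven from the locus of Lgr5, a Wnt target gene that marks crypt base stem cells. Flow cytometry separated Lgr5+ cells (labelled ISC, intestinal stem cells) from Lgr5- cells (labelled non-ISC), and 1 library was made of each. The labels do not give the number of animals pooled into a library. No Cre-dependent allele and no treatment is named for either group. Ribosomal RNA was removed, linear RNA was digested with the exonuclease RNase R, and each library was read as pairs of 150 nt from fragments of about 200 bp.

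A circRNA is made when the splicing machinery joins the end of an exon (the donor) back to the start of the same or an earlier exon (the acceptor) of the same transcript. The closed loop has no free end, which makes it resistant to exonucleases and slow to decay. Long introns on either side and inverted repeats within them are known to favour back-splicing, and the exon after the first one is a frequent acceptor.

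A read across the back-splice junction holds the end of the donor exon followed by the start of the acceptor exon. In the junctions printed here the last 20 bases of the donor exon are in lower case, and the capitals are the first 20 bases of the acceptor exon. They were read 5′ to 3′ from GENCODE M21 transcripts on GRCm38. The first set shows the pair of circRNAs of Rasa2 (chr9, minus strand), which had the highest mean scaled levels of the set and begin at the same acceptor, exon 2. One closes from exon 4 (chr9:96602713-96611499) and the other from exon 5 (chr9:96591950-96611499).
Rasa2 exons 2 to 4: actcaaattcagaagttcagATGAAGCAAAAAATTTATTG
Rasa2 exons 2 to 5: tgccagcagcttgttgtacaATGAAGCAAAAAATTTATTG

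The second set shows 3 circRNAs of Glcci1 (chr6, plus strand), which also share exon 2 as acceptor and were among the most shifted towards the ISC-labelled library. They close from exon 4 (chr6:8537817-8573298), exon 5 (chr6:8537817-8579739) and exon 6 (chr6:8537817-8582790).
Glcci1 exons 2 to 4: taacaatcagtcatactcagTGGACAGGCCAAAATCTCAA
Glcci1 exons 2 to 5: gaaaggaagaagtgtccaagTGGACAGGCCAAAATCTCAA
Glcci1 exons 2 to 6: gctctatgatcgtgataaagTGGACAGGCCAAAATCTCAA

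The third set holds coding junctions from the other end of the range, shifted towards the non-ISC-labelled library: Slc7a8 (chr14:54758439-54759745, minus strand), Pip5k1b (chr19:24346237-24360151, minus strand), Acvr2a (chr2:48870289-48873473, plus strand) and Cds1 (chr5:101781375-101798516, plus strand).
Slc7a8 exons 2 to 3: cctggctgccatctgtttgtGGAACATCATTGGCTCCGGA
Pip5k1b exons 8 to 13: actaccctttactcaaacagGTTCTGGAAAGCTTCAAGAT
Acvr2a exons 2 to 4: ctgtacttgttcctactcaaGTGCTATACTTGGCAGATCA
Cds1 exons 2 to 5: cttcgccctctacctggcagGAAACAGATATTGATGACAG

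The last set shows 3 junctions whose scaled reads were nearly equal in both libraries: Mettl9 (chr7:121047838-121057399, plus strand), Lrch3 (chr16:32950292-32961744, plus strand) and Cd2ap (chr17:42845326-42852528, minus strand).
Mettl9 exons 2 to 4: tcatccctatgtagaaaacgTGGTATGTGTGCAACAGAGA
Lrch3 exons 2 to 6: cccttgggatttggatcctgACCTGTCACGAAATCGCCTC
Cd2ap exons 2 to 3: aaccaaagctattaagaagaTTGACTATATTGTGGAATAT

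The ISC-labelled library held 156582 junction reads and the non-ISC-labelled library 76331, a depth ratio of 2.05. Reads were divided by these totals, and a ratio above 1 means a larger share of junction reads in the ISC-labelled library. Counts of stem cell markers and of immune genes went against the labels. Which cells each library held was not tested, and the labels are used as given. Over the circRNAs of 97 gut epithelial marker genes, Lgr5 among them, there were 116 reads from 14 genes in the ISC-labelled library and 3689 reads from 59 genes in the non-ISC-labelled library, or 741 and 48329 per 1000000 junction reads. That list covers gut epithelial cell types together, and its sum was not split into stem cell and other markers. The circRNAs of Lgr5 had 0 and 7 reads, those of the stem cell marker Smoc2 had 0 and 45, and Ascl2, another stem cell marker, had 0 in both. Over 129 lymphocyte and other immune genes there were 9500 reads from 84 genes and 576 reads from 48 genes, with Satb1 at 4292 and 3 and the T-lineage gene Themis at 784 and 2. Over 30 stromal, muscle and endothelial marker genes there were 735 reads from 8 genes and 22 reads from 5 genes. Of these, 1 circRNA of Zeb1 alone held 564 and 10, so the sum does not describe the list as a whole. Of the well covered circRNAs, 1 was of a gut epithelial marker (Axin2), 7 were of immune genes and 1 was of a stromal marker (Zeb1). The minimum asks for reads in both libraries, so circRNAs read in 1 library only could not be in the set. In the full lists, as defined below, 31 of 37 gut epithelial circRNAs had reads in the non-ISC-labelled library only. Reads in the ISC-labelled library only were held by 51 of 90 immune and 5 of 7 stromal ones. The small numbers in the set follow in part from the minimum, and nothing is read from them. The part of cell composition in the ratios was not tested, and in bulk libraries fewer cells of a type and less RNA per cell cannot be told apart. With 1 library in each group there is no replicate check, so every ratio below compares these libraries and not the cell types. Its 95% interval, an exact conditional (Clopper-Pearson) interval, covers counting error only.

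The well covered circRNAs came from 654 named host genes. They held 68084 junction reads (43.5% of the total, exact binomial 95% interval 43.2% to 43.7%) in the ISC-labelled library and 32398 (42.4%, 42.1% to 42.8%) in the non-ISC-labelled library. The shares were close, though their intervals did not overlap, and 33.2% of the 2553 circRNAs with 10 or more reads in the ISC-labelled library were well covered, against 59.8% of the 1416 in the non-ISC-labelled library. The median circRNA had 36 reads (quartiles 19 and 76) and 20 reads (quartiles 13 and 38). The top 10 circRNAs held 14.9% and 11.9% of the reads of the set, and 88 and 117 circRNAs sufficed for 50%.

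Between the libraries the median ratio was 0.812, with quartiles of 0.487 and 1.42 and a range from 0.0372 to 27.5. At least 2-fold higher in the ISC-labelled library were 117 circRNAs, and 231 were at least 2-fold lower. These are 13.8% and 27.3% of the set, beside 40.7% higher and 28.5% lower among all 3659 circRNAs that had 10 or more reads over both, and 27.5% and 28% among the 2542 of these with reads in both. The rule used this contrast, and nothing is read from the shares. The interval excluded 1 for all 117 of the higher and for 202 of the lower circRNAs. The minimum and the depth of the libraries shape these counts: 10 reads in each library already make a circRNA 2-fold lower, while a 2-fold higher one needs more reads. They do not show that one direction is firmer than the other. Within 2-fold lay 499 (58.9%), within 1.5-fold 323 (38.1%), and for 442 (52.2%) the interval included 1. Past 4-fold there were 23 higher and 56 lower circRNAs, and past 8-fold 7 and 9.

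The balance of higher to lower rested on the scaling and on the minimum. A count of 10 reads is 63.9 per 1000000 in the ISC-labelled library but 131 per 1000000 in the other, so the minimum reached to lower levels in the deeper library. Where the same scaled level was asked of both, which takes at least 21 reads in the ISC-labelled library, 608 circRNAs remained with 117 higher, 87 lower and a median ratio of 1.10. This alternative was chosen after seeing the data. Every well covered circRNA at least 2-fold higher passes it by its ratio, so the 117 could not change. Only circRNAs that were lower or within 2-fold could drop out. Scaled by all reads of each library, 52636694 and 72271995 as implied by the deposited RPM values, every log2 ratio moved up by 1.49, and 482 circRNAs were higher and 25 lower. With median-ratio size factors, which set the median of circRNAs with reads in both at 1, the counts were 169 and 153. A statement that a circRNA with a ratio between 0.355 and 1 was lower therefore holds for the junction totals and turns with the library totals.

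**Figure D1:**
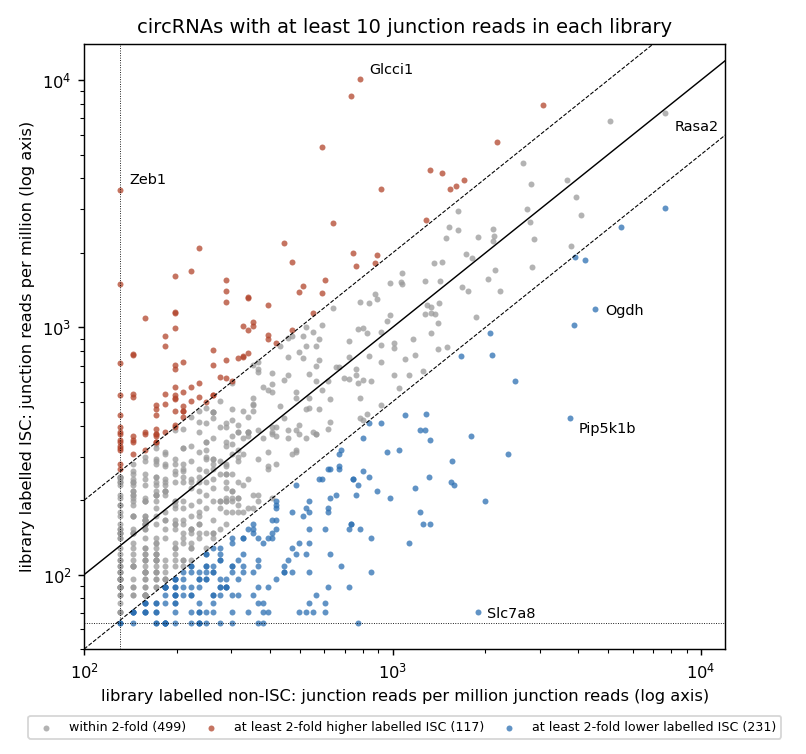
Junction reads per 1000000 junction reads of the 847 circRNAs in the non-ISC-labelled library (horizontal, log axis) and the ISC-labelled library (vertical, log axis), 1 point per circRNA. The solid line marks equal scaled levels, the dashed lines 2-fold differences and the dotted lines the minimum of 10 reads. The red points (117) and blue points (231) lie past 2-fold, with Glcci1 and Zeb1 far above the line, Slc7a8 and Pip5k1b far below it and Rasa2 on it. With library totals all points would shift up by 1.49 on the log2 scale.

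The ratios spread more widely than counting alone would give. The SD of the log2 ratio over the 847 circRNAs was 1.18, while the root mean square counting error was 0.42, or 12.8% of the variance. With 1 library a group the rest cannot be split between library, animal and cell type. With the minimum in each library raised to 20 and 50 reads, the SD narrowed to 1.13 and 1.03. By reads summed over both libraries it did not narrow. The 338 circRNAs with 20 to 49 reads over both libraries had an SD of 0.75, and the 36 with at least 500 reads had an SD of 1.46 at a counting error of 0.16. The narrow spread of the first of these groups is set in part by the minimum, which caps how far a low count can lie from the other. The median ratio was 0.606 in the first and 1.35 in the second. None of the 338 circRNAs was 2-fold higher and 126 were lower, whereas 13 of the 36 were higher and 5 lower. With at least 10 reads in the shallower non-ISC-labelled library, a circRNA with 20 to 49 reads in sum cannot be 2-fold higher. The minimum therefore fixed that result beforehand, and nothing is read from these counts or from the 2 medians.

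Ranks were shared in part. The Spearman correlation of the scaled reads over the 847 circRNAs was 0.50 and the Pearson correlation of their logarithms 0.61. It was 0.54 (Spearman) over the 4375 circRNAs with reads in both. All points share the same pair of libraries, and circRNAs of 1 host share a transcript, so these are descriptions. Among the top 50 of each library 31 were shared, among the top 200 it was 121 (60.5%), and among the top 20 it was 9. The 9 were of Erbb2ip, Rasa2 (both circles shown above), Tmem87b, Setd3, Rras2, Zfp148, Rbm4 and Whsc1.

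The 8 circRNAs with the highest mean scaled level came from 6 genes: Rasa2, Erbb2ip, Glcci1, Rbm4, Elf2 and Stx6. Rasa2 encodes a GTPase-activating protein that switches off Ras, and its circle of exons 2 to 4 had 1148 reads in the ISC-labelled library and 584 in the non-ISC-labelled library. The ratio of these reads was 0.958 (0.867 to 1.06), so that within the set it ranked 4 in the ISC-labelled library and 1 in the other at nearly equal scaled level. The circle of exons 2 to 5 had 1072 and 386 reads, a ratio of 1.35 (1.20 to 1.52). Adding exon 5 thus went with a ratio whose interval did not overlap that of the shorter circle. Erbb2ip encodes Erbin, a scaffold that binds the receptor ErbB2, and its circle of exons 2 to 4 (chr13:103884143-103889285) had 1245 and 235 reads, a ratio of 2.58 (2.24 to 2.98). Stx6 encodes a SNARE protein of the trans-Golgi network and endosomes, and its circle of exons 2 to 7 (chr1:155173986-155197435) had 879 and 167 reads, a ratio of 2.57 (2.17 to 3.05). Both were among the higher circRNAs although they were abundant in either library.

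Rbm4, which encodes a splicing regulator, and the ETS factor gene Elf2 stood on the other side by junction totals, which turned with library totals. The Rbm4 circRNA at chr19:4792398-4794009 had 477 and 583 reads, a ratio of 0.399 (0.353 to 0.451) that became 1.12 with library totals. For exons 2 to 4 of Elf2 (chr3:51308050-51326035) the reads were 397 and 420, a ratio of 0.461 (0.401 to 0.530) that became 1.3 with library totals. Both ranked among the most abundant because of the non-ISC-labelled library, where Rbm4 ranked 2 within the set. Tmem87b, a Golgi membrane protein gene, had 724 and 202 reads, a ratio of 1.75 (1.49 to 2.05). Rras2, a Ras-related GTPase gene, had 597 and 215 reads, a ratio of 1.35 (1.16 to 1.59).

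The most stable circRNAs, those whose interval reached least far from 1, were of 8 genes with deep coverage. After Rasa2 came exons 2 to 6 of Setd3 (chr12:108157754-108165172), a histidine methyltransferase of actin, with 617 and 280 reads and a ratio of 1.07 (0.931 to 1.24). Whsc1 (chr5:33843112-33846267), a histone methyltransferase gene, had 471 and 209 reads, a ratio of 1.10 (0.931 to 1.3). Mettl9, a protein histidine methyltransferase gene, had 419 and 213 reads, a ratio of 0.959 (0.811 to 1.14). The remaining 4 were Lrch3 (368 and 163 reads), Cd2ap, an adaptor to the actin cytoskeleton (349 and 161), Spred2, an inhibitor of Ras to ERK signalling (300 and 138), and Lin54, a DNA-binding subunit of the DREAM complex (192 and 99). Their ratios lay between 0.945 and 1.10. The interval lay wholly within 1.5-fold for 26 circRNAs of 26 hosts and within 2-fold for 118. Stable here means an equal share of junction reads: with library totals the ratio of the Rasa2 circle would be 2.70 and that of Setd3 3.03.

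**Figure D2:**
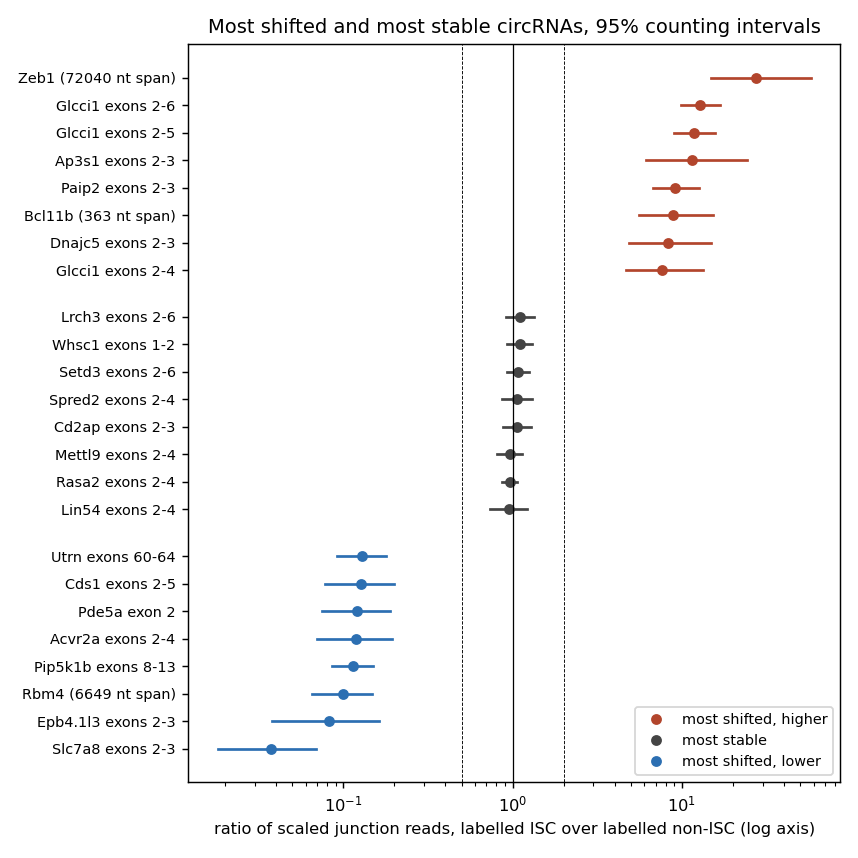
Ratio of scaled junction reads, ISC-labelled over non-ISC-labelled (log axis), for the 8 most shifted circRNAs in each direction and the 8 most stable, with 95% counting intervals as bars. The higher group lies between 7.60 and 27.5, the stable group between 0.945 and 1.10, and the lower group between 0.0372 and 0.129. With library totals all 24 ratios would be larger by 1.49 on the log2 scale, and the lower group would stay below 1.

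The most shifted circRNAs towards the ISC-labelled library came from 6 host genes. Zeb1, a repressor of epithelial genes, had 564 reads at chr18:5633204-5705243 against 10, a ratio of 27.5 (14.8 to 57.6). It sat exactly at the minimum in the non-ISC-labelled library. Glcci1, a glucocorticoid-induced gene, held 3 of the 8 places: exons 2 to 6 had 1576 and 60 reads (12.8, 9.89 to 16.9), exons 2 to 5 had 1345 and 56 (11.7, 8.96 to 15.6) and exons 2 to 4 had 265 and 17 (7.60, 4.66 to 13.2). The first of these had the most reads of the set in the ISC-labelled library. Its other well covered circle, exons 2 to 7, had 170 and 12 reads, a ratio of 6.91 (3.85 to 13.6). The 4 Glcci1 circles share an acceptor and their intervals overlapped.

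Paip2, which encodes a repressor of translation that binds the poly(A)-binding protein, had 840 and 45 reads in its circle of exons 2 to 3 (chr18:35610871-35613502), a ratio of 9.10 (6.74 to 12.6). Exons 2 to 3 of Ap3s1 (chr18:46754371-46758114), the small subunit of the AP-3 adaptor complex, had 235 and 10 reads, a ratio of 11.5 (6.12 to 24.2). Dnajc5, a cochaperone gene of exocytosis, had 253 and 15 reads (chr2:181546371-181547553), a ratio of 8.22 (4.89 to 14.9). Bcl11b, a transcription factor gene of the T lineage, had 329 and 18 reads (chr12:107989465-107989827), a ratio of 8.91 (5.55 to 15.2). In each of these 4 genes the non-ISC-labelled library held at most 45 reads of the circle named. With the deposited read count the ratio was 3.86 for Paip2, 3.18 for Ap3s1 and 18.9 for Dnajc5, and that of Bcl11b did not change.

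Towards the non-ISC-labelled library, the farthest was Slc7a8, a transporter gene of large neutral amino acids, with 11 and 144 reads and a ratio of 0.0372 (0.0182 to 0.0686). Pip5k1b, a phosphatidylinositol phosphate kinase gene, combined a strong shift with depth: 67 and 286 reads gave a ratio of 0.114 (0.0862 to 0.149). Epb4.1l3, which links the membrane to the spectrin cytoskeleton, had 10 and 59 reads (chr17:69207859-69210383), a ratio of 0.0826 (0.0377 to 0.163). A second circRNA of Rbm4 (chr19:4787361-4794009) had 31 and 152 reads, a ratio of 0.0994 (0.0653 to 0.147). Acvr2a, an activin receptor gene, had 21 and 86 reads, a ratio of 0.119 (0.0701 to 0.194).

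The other 3 of this group were Pde5a, a cyclic GMP phosphodiesterase gene (25 and 101 reads), Cds1, an enzyme gene of phospholipid synthesis (25 and 96 reads), and exons 60 to 64 of Utrn, the gene of utrophin (48 and 181 reads). Their ratios were 0.121 (0.0746 to 0.188), 0.127 (0.0783 to 0.199) and 0.129 (0.0920 to 0.179). All 8 of these ratios stayed below 1 with library totals, at 0.105 to 0.364. With the deposited read count Pde5a lost its 2-fold call, at 0.681. Slc7a8, Epb4.1l3 and Acvr2a moved to 0.0609, 0.207 and 0.374, and the rest of this group did not change.

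CircRNAs just outside the minimum also differed between the libraries, with a range wider above 1 and narrower below it. Of the 149 with a lower count of 10 or 11 reads, 23 were 2-fold higher and 45 lower, and the extremes were Zeb1 (564 and 10) and Slc7a8 (11 and 144). Of the 211 circRNAs just outside, with a lower count of 8 or 9 reads, 36 were higher and 54 lower. Their extremes were a circRNA on a FANTOM transcript (555 and 8) and Creb3l2 (8 and 33), and the median ratios inside and outside were 0.798 and 0.867.

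Host genes were grouped by 19 lists of function, and counts of circRNAs at least 2-fold higher and lower are given beside those with library totals. Each list with more than 1 well covered circRNA is also given in full, meaning all its circRNAs with 10 or more reads over both libraries whether well covered or not, and at an equal scaled level in both libraries, as above. The whole set had 117 higher, 231 lower and 323 within 1.5-fold, at a median of 0.812. At an equal scaled level it had 117 and 87 of 608. The higher count cannot change there in any list, so the balance at an equal level is no separate check. Over all 3659 circRNAs with 10 or more reads over both libraries 1489 were higher and 1041 lower (40.7% and 28.5%). Chromatin regulators were the largest list, with 78 circRNAs of 55 genes. Among them 9 were higher, 11 lower and 38 within 1.5-fold, at a median of 1.07, and with library totals 59 were higher and 1 lower. In full, chromatin regulators had 130 higher and 51 lower of 285, and at an equal scaled level 9 and 2 of 62. Ezh2, the methyltransferase of Polycomb complex PRC2, had 179 and 15 reads in its circle of exons 2 to 8, a ratio of 5.82 (3.43 to 10.6). Ep400, an ATPase of chromatin remodelling, had 37 and 118 reads over exons 2 to 3, a ratio of 0.153 (0.103 to 0.223).

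DNA replication, repair and cell division genes had 32 circRNAs, with 4 higher, 3 lower and a median of 1.10, against 23 and 0 with library totals. In full, division genes had 93 higher and 24 lower of 181, and at an equal scaled level 4 and 1 of 23. Mad1l1, a spindle checkpoint gene, had 113 and 16 reads, a ratio of 3.44 (2.03 to 6.23). The mismatch repair gene Pms1 had 309 and 132 reads, a ratio of 1.14 (0.928 to 1.41). Esco1, a cohesin acetyltransferase gene, had 388 and 124 reads, a ratio of 1.53 (1.24 to 1.88). Lin54 had a second, shorter circle with 30 and 32 reads, a ratio of 0.457 (0.268 to 0.777) that became 1.29 with library totals, beside the stable longer one.

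Transcription factors had 51 circRNAs of 37 genes, of which 13 were higher, 10 lower and 16 within 1.5-fold (32 higher and 0 lower with library totals). Their median was 0.850. In full, transcription factors had 93 higher and 35 lower of 187, and at an equal scaled level 13 and 7 of 42. The range ran from Zeb1 and Bcl11b to Zfp827, a zinc finger gene with 35 and 90 reads and a ratio of 0.190 (0.124 to 0.283). Zfp148, a zinc finger gene, had 525 and 301 reads, a ratio of 0.850 (0.737 to 0.983). The longer form of the Bcl11b exon 2 circle had 570 and 70 reads, a ratio of 3.97 (3.09 to 5.16).

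RNA binding, splicing and translation genes had 58 circRNAs of 43 genes, 6 higher, 19 lower and 25 within 1.5-fold, at a median of 0.829 (33 higher and 1 lower with library totals). The balance turned in full, as it did over all circRNAs, at 88 higher and 48 lower of 216. At an equal scaled level it was 6 and 6 of 43. The higher ones included Pan3 and Cnot6l, genes of enzymes that shorten poly(A) tails. Pan3, a subunit of the PAN deadenylase, had 198 and 22 reads, a ratio of 4.39 (2.82 to 7.16). Cnot6l, a catalytic subunit of the CCR4-NOT complex, had 615 and 130 reads, a ratio of 2.31 (1.91 to 2.81). The lower ones were led by Rbm4. Ubiquitin and deubiquitinase genes had 49 circRNAs, 10 higher and 9 lower (31 and 0 with library totals). In full, ubiquitin genes had 70 higher and 25 lower of 158, and at an equal scaled level 10 and 2 of 36. Their conjugating enzyme genes Ube2k (343 and 34 reads, ratio 4.92, 3.45 to 7.22) and Ube2d2a (582 and 123 reads, ratio 2.31, 1.90 to 2.83, or 1.44 with the deposited read count) were higher, as was the SUMO protease gene Senp6 (424 and 98 reads, ratio 2.11, 1.69 to 2.65). Ubac2, a ubiquitin-associated gene, had 24 and 46 reads, a ratio of 0.254 (0.148 to 0.425) that was 0.986 with the read count.

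Kinases and phosphatases had 51 circRNAs of 36 genes, 3 higher, 16 lower and 23 within 1.5-fold, at a median of 0.762 (27 higher and 2 lower with library totals). This balance also turned in full, as it did over all circRNAs, at 87 higher and 55 lower of 209. At an equal scaled level it was 3 and 9 of 39. The insulin receptor gene Insr had 289 and 36 reads, a ratio of 3.91 (2.76 to 5.70), and the lowest was Acvr2a. Small GTPase regulators had 53 circRNAs of 32 genes, 4 higher and 16 lower at a median of 0.682 (25 and 1 with library totals), against 64 higher and 45 lower of 171 in full and 4 and 8 of 36 at an equal scaled level. Vav3, an exchange factor for small GTPases, had 121 and 11 reads, a ratio of 5.36 (2.89 to 11), and the Rab regulator Tbc1d14 had 57 and 137, a ratio of 0.203 (0.146 to 0.278). Phosphoinositide and lipid enzymes had 18 circRNAs, 2 higher and 5 lower at a median of 0.944 (12 and 2 with library totals), against 40 and 27 of 88 in full and 2 and 2 of 14 at an equal scaled level. Osbpl9, an oxysterol-binding protein gene, had 207 and 26 reads, a ratio of 3.88 (2.57 to 6.08), at the other end from Pip5k1b.

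Metabolic and mitochondrial enzymes had 21 circRNAs of 15 genes, with 1 higher and 11 lower at a median of 0.487, which became 1.37 with library totals (6 higher and 1 lower). In full, metabolic enzymes had 15 higher and 31 lower of 66, and at an equal scaled level 1 and 6 of 13 at a median of 0.620. Ogdh, a subunit gene of the oxoglutarate dehydrogenase complex of the citric acid cycle, had 185 and 345 reads, a ratio of 0.261 (0.217 to 0.313). The glycosyltransferase genes Mgat4a (160 and 296 reads, ratio 0.264, 0.216 to 0.320) and Fut8 (12 and 46 reads, ratio 0.127, 0.0613 to 0.244) lay on the same side. These 3 ratios stayed below 1 with library totals. Etnk1, an ethanolamine kinase gene, was the exception with 90 and 15 reads, a ratio of 2.92 (1.68 to 5.44) that was 1.33 with the deposited read count.

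Adhesion, junction and polarity genes had 7 circRNAs, 0 higher and 4 lower at a median of 0.455, which became 1.28 with library totals (3 higher and 0 lower). In full, adhesion genes had 3 higher and 39 lower of 52, and at an equal scaled level 0 and 3 of 6. Inadl, a scaffold of tight junctions, had 24 and 55 reads, a ratio of 0.213 (0.126 to 0.349), and Tns3, which links integrins to actin, had 69 and 84, a ratio of 0.400 (0.287 to 0.557) that became 1.13 with library totals and 1.87 with the read count. Fryl of the same list had 362 and 144 reads, a ratio of 1.23 (1.01 to 1.5). Transporters and channels had 9 circRNAs, 1 higher and 3 lower at a median of 0.942 (6 and 2 with library totals), against 31 and 27 of 76 in full and 1 and 2 of 8 at an equal scaled level. The amino acid transporter genes Slc7a8 and Slc43a2 (36 and 121 reads, ratio 0.145, 0.0971 to 0.212) were at one end. At the other was Atp6v1h, a subunit gene of the vacuolar proton pump, with 131 and 14 reads and a ratio of 4.56 (2.62 to 8.57).

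Wnt, BMP, Hippo and Notch signalling genes, which control crypt stem cells, had 25 circRNAs of 20 genes. Of these 1 was higher, 8 were lower and 12 lay within 1.5-fold, at a median of 0.809 (14 higher and 2 lower with library totals). In full, these signalling genes had 19 higher and 25 lower of 79, and at an equal scaled level 1 and 4 of 20. The BMP mediator genes Smad4 (294 and 320 reads, ratio 0.448, 0.381 to 0.526) and Smad1 (121 and 160 reads, ratio 0.369, 0.289 to 0.470) were lower by junction totals, and became 1.26 and 1.04 with library totals. Axin2, a feedback target of Wnt and the only well covered host among the gut epithelial markers, had 10 and 29 reads, a ratio of 0.168 (0.0731 to 0.355) that reversed to 1.45 with the deposited read count. The coactivator gene Crebbp had 82 and 11 reads in 1 of its circles, a ratio of 3.63 (1.93 to 7.56). Immune genes had 7 circRNAs, 2 higher and 2 lower (4 and 1 with library totals, 2 and 1 of 5 at an equal scaled level), where the list in full had 73 higher and 6 lower of 90, 51 of them with reads in the ISC-labelled library only. Both of the higher ones were of Bcl11b, and the farthest in the other direction was the phagocyte receptor gene Mertk with 14 and 55 reads, a ratio of 0.124 (0.0637 to 0.226).

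In 4 further lists the counts were as follows. Membrane trafficking and autophagy genes had 27 circRNAs, 5 higher and 5 lower at a median of 0.929 (18 and 0 with library totals, 41 and 42 of 128 in full, 5 and 2 of 22 at an equal scaled level), from Stx6 to the sorting receptor gene Sorl1 (25 and 56 reads, ratio 0.218, 0.130 to 0.355). Cytoskeleton, motor and cilia genes had 22, with 1 higher and 4 lower (13 and 1 with library totals, 48 and 35 of 122 in full, 1 and 0 of 14 at an equal scaled level). Of these Camsap1, which binds microtubule minus ends, had 242 and 97 reads, a ratio of 1.22 (0.957 to 1.56), and the Z-disc gene Pdlim5 had 11 and 42, a ratio of 0.128 (0.0593 to 0.252). Nuclear pore and import genes had 3 circRNAs, of which 1, of the export receptor gene Cse1l (48 and 11 reads, ratio 2.13, 1.09 to 4.54), was higher and 0 were lower (3 and 0 with library totals). In full this list had 24 higher and 11 lower of 45, and at an equal scaled level 1 and 0 of 3. Hosts known for abundant circRNAs in other tissues had 49, with 4 higher, 13 lower and 23 within 1.5-fold at a median of 0.768 (27 and 1 with library totals), against 52 higher and 41 lower of 157 in full and 4 and 8 of 41 at an equal scaled level. The 362 circRNAs in none of the lists had 58 higher and 110 lower at a median of 0.774 (192 and 12 with library totals).

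**Figure D3:**
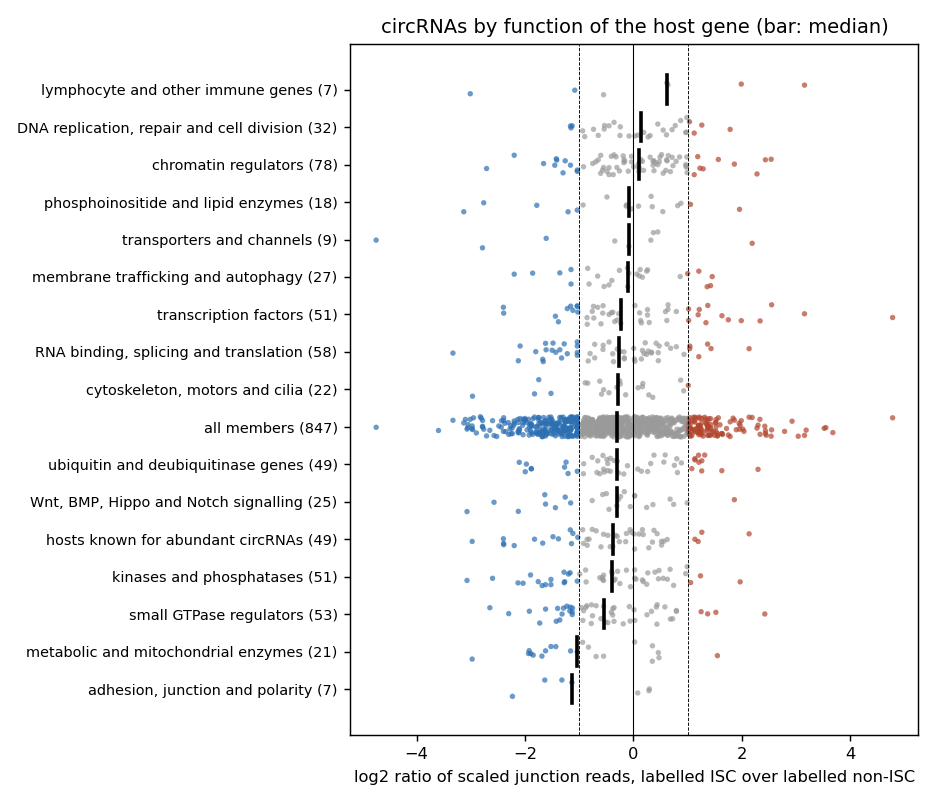
Log2 ratio of scaled junction reads (ISC-labelled over non-ISC-labelled) of each circRNA by function of its host gene, with the number of circRNAs in parentheses and the median as a bar. Red and blue points lie past 2-fold, marked by dashed lines; a circRNA can be in several lists, and lists of fewer than 7 are left out. Medians run from 0.455 for adhesion genes to 1.53 for the 7 immune circRNAs, and with library totals all of them lie above 1.

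Of the host genes, 144 gave more than 1 well covered circRNA, 332 in all, and circles of 1 gene often differed. The pooled SD of the log2 ratio within these hosts was 0.84, against 1.12 over their circRNAs as a whole and a counting error of 0.40. The median fold between the highest and lowest circle of a host was 1.77, and it was 1.76 for the 101 hosts whose circles share an end. In 39 hosts some intervals did not overlap, in 105 all did, and in 82 all ratios lay on the same side of 1. All circles were 2-fold higher in 7 hosts, all lower in 15 and all within 2-fold in 48.

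In 5 hosts 1 circle was at least 2-fold higher and another at least 2-fold lower: Foxp1, Ncoa6, Ppm1h, Rabep1 and Zfp292. The lower circles of Ncoa6 (20 reads in each library), Ppm1h (19) and Zfp292 (14) had equal counts, which scale to 0.487. The interval of the Zfp292 circle, 0.215 to 1.10, included 1. With median-ratio size factors the lower Rabep1 circle, at 0.565, lost its 2-fold call. With library totals all 5 of the lower circles were above 1, the Rabep1 circle of exons 9 to 13 turning from 0.459 to 1.29. The forkhead factor gene Foxp1 had 61 and 13 reads at chr6:99003200-99010057, a ratio of 2.29 (1.24 to 4.54), and 22 and 28 reads at chr6:99428789-99435345, a ratio of 0.383 (0.209 to 0.694). Ppm1h, a phosphatase gene, had 84 and 11 reads in one circle (3.72, 1.98 to 7.74) and 19 and 19 in the other (0.487, 0.244 to 0.973).

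The contrast was among the sharpest in Rbm4, Ep400 and Kat6b. The histone acetyltransferase gene Kat6b had 219 and 22 reads over exons 8 to 12 (chr14:21626719-21637640), a ratio of 4.85 (3.12 to 7.90), and 104 and 96 reads over exon 2 (chr14:21516626-21517498), a ratio of 0.528 (0.396 to 0.704). In Ep400 both circles begin at exon 2: exon 2 alone had 72 and 27 reads, a ratio of 1.3 (0.825 to 2.10), where exons 2 to 3 had the 37 and 118 given above. The 4 circRNAs of Rbm4 ran from 0.0994 to 1.11. A ratio between 2 circles of 1 gene does not move with the scaling of the libraries.

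Rere, a corepressor gene, had the most circRNAs, 5, with ratios from 0.522 to 4.05. Its 3 circles that begin at exon 2 were all higher, with 681 and 101 reads (3.29, 2.66 to 4.09), 217 and 38 (2.78, 1.97 to 4.04) and 83 and 10 (4.05, 2.09 to 8.75). The 2 that close at exon 7 had 39 and 18 reads (1.06) and 15 and 14 (0.522). Elf2 had 4 circles from 0.461 to 0.660, and their intervals overlapped. Rabep1, a gene of endosome fusion, had 4, of which the 3 that begin at exon 2 went from 2.37 (570 and 117 reads) for the shortest to 1.19 (39 and 16) for the longest.

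**Figure D4:**
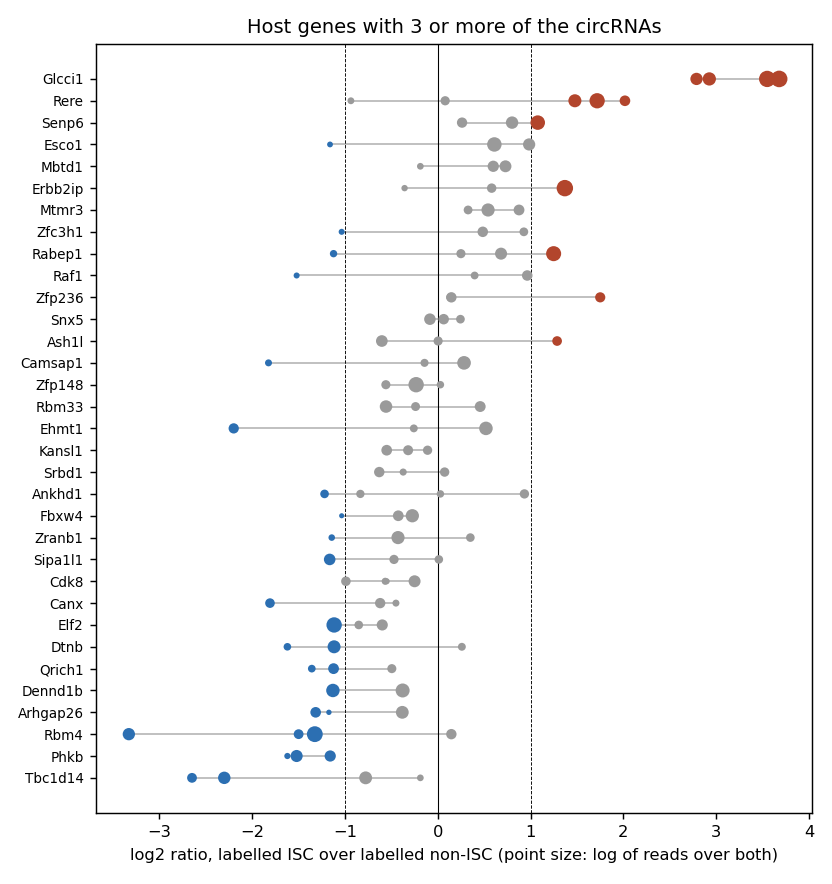
Log2 ratio of scaled junction reads of every circRNA of the host genes with 3 or more well covered circRNAs (34, of which 1 is not shown), sorted by level, with points sized by reads over both libraries. Red and blue points lie past 2-fold by junction totals (dashed lines). All 4 Glcci1 circles lie to the right, all 3 of Phkb to the left, and Rbm4, Rere and Tbc1d14 spread over more than 2-fold; with library totals all points would shift right by 1.49.

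The ratio of a host's well covered circRNAs was compared with that of its other circRNAs, which the rule left out for low counts. The other circRNAs had at least 20 reads in sum in 389 hosts, and in 378 of them reads in both libraries (11 had them in 1 only). Over the 378 the Spearman correlation of the ratios was 0.51 (Pearson of log2 values 0.58). The points share the libraries. Over the 389 hosts the other circRNAs were at least 2-fold higher in 134 (34.4%) and lower in 69 (17.7%). Of 58 hosts at least 2-fold higher by their well covered circRNAs, 37 were also higher by the others and 1 was lower, with a median of 2.96. The 1 was Foxn3, a forkhead gene, with 69 and 13 reads in the well covered circle and 8 and 61 in the others. Of 96 hosts at least 2-fold lower, 46 were also lower by the others and 14 were higher, with a median of 0.532.

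The well covered circRNAs were mostly made of annotated exons, as were those with 10 or more reads in 1 library only. Both ends fell on exon ends of 1 transcript in 796 (94%, 92.2% to 95.5%), against 69.8% of the 25418 other circRNAs with a read. With 10 or more reads in 1 library only, the share was 91.9% for the ISC-labelled library and 93.7% for the non-ISC-labelled library. Exon position and length were not used to choose them, though circRNAs of 1 host share exons and the shares are set side by side without a test. They spanned a median of 6252 nt of the genome (quartiles 2351 and 13496.5) against 4953 nt, and the median spliced length 452.5 nt against 475 nt. Both sets had a median of 3 exons. Circles of 2 to 4 exons made up 71.4% against 63.0%, and those of 10 or more exons 0.879% against 4.79%. Spans of at most 500 nt were 3.90% against 15%. In these measures the circRNAs covered in 1 library only lay near the well covered ones, with median spans of 5789.5 and 6551 nt, 74.1% and 68.9% of circles with 2 to 4 exons, 1.40% and 1.88% with 10 or more, and 4.22% and 4.75% of short spans.

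Exon 2 was the acceptor in 47.0% (43.5% to 50.5%) of the 796, against 25.7% of the other circRNAs with exonic ends. In circRNAs with 10 or more reads in 1 library only, this share was 32.4% in the ISC-labelled library and 32.5% in the non-ISC-labelled library. The start codon lay in 23.9% (20.9% to 27%) of the well covered circles against 12.1%, and in 13.1% and 15% of those covered in 1 library only. The introns beside them were long, with a median of 12375 nt upstream and 8778 nt downstream, against 4654 nt and 3506 nt for the others. For circRNAs with 10 or more reads in 1 library only the upstream medians were 7685.5 nt and 10321.5 nt. Of the circles that hold coding sequence only, 34.0% (30.2% to 38%) had a spliced length that is a multiple of 3, against 39.5%. Exon numbers follow 1 chosen transcript per gene and can differ in another.

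Of the 3 shortest and 3 longest spans, 5 had a ratio below 1 by junction totals and 2 with library totals. The shortest were exon 2 of the ephrin gene Efnb2 (284 nt, 12 and 41 reads, ratio 0.143), exon 2 of the adaptor gene Gab1 (295 nt, 11 and 26 reads, ratio 0.206) and exon 2 of Gpsm2 (304 nt, 32 and 10 reads, ratio 1.56), which orients the spindle. The longest were Tmem164 (chrX:142752040-142834393, 121 and 90 reads), Tasp1, the gene of the protease taspase (chr2:139977607-140057499, 59 and 42 reads), and Zmiz1 (chr14:25502655-25581673, 13 and 15 reads). Their ratios were 0.655 (0.495 to 0.871), 0.685 (0.453 to 1.04) and 0.422 (0.185 to 0.952). Over all 847 the Spearman correlation of ratio and span was −0.07.

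GC content went with the ratio more than any length did. The Spearman correlation of the ratio with the GC content of the spliced circle was −0.26 over 796 circRNAs, against −0.14 for spliced length, −0.04 for exon number and −0.08 for the downstream intron. The median ratio went from 1.13 in the group of 199 with the lowest GC content (32.9% to 43.6%) through 0.820 and 0.752 to 0.634 in the 199 with the highest (51.4% to 69.1%). The circRNAs past 2-fold went from 50 higher and 21 lower in the first group to 17 higher and 78 lower in the last. At an equal scaled level in both libraries the correlation was −0.24 (n = 569). The median GC content was 44.9% for the higher and 49.5% for the lower circRNAs. In the circRNAs with 10 or more reads in 1 library only it was 46.5% for the ISC-labelled library and 49.7% for the non-ISC-labelled library. Points share hosts and libraries.

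**Figure D5:**
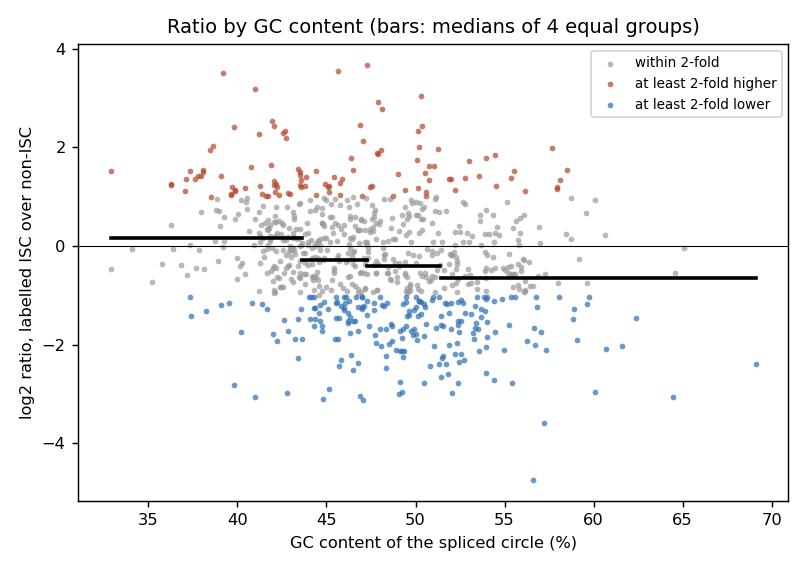
Log2 ratio of scaled junction reads (ISC-labelled over non-ISC-labelled) against the GC content in percent of the spliced circle, for the 796 circRNAs with both ends on exon ends, with the median of each group of 199 by GC content as a bar. Red and blue points lie past 2-fold by junction totals. Medians go from 1.13 to 0.634 from the lowest to the highest group; with library totals all 4 lie above 1.

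At the junction itself the acceptor exon began with G in 43.6% of the well covered circRNAs. The share was 27.5% (19.4% to 36.9%) in the higher and 48.4% (41.5% to 55.3%) in the lower circRNAs. Circles of 1 host can share an acceptor, and with each acceptor counted once the shares were 28.7% (20.1% to 38.6%) of 101 and 48.3% (41.3% to 55.4%) of 205. The difference was not tested. In circRNAs with 10 or more reads in 1 library only the shares were 46.5% for the ISC-labelled library and 45.4% for the other, so the low share of the higher circRNAs was not seen among those with few reads in the non-ISC-labelled library. The Glcci1 junctions above begin with T after the join, and those of Slc7a8, Pip5k1b, Acvr2a and Cds1 with G. Among other strongly lower circles that of Pde5a begins with A and that of Utrn with T. The donor exon ended in AG in 53.0% of the well covered circRNAs and in 56.5% of the others.

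Ends only a few bases apart were listed as separate circRNAs in 4 pairs. In Bcl11b (329 and 18 reads against 570 and 70) and Elf2 (17 and 15 against 397 and 420) the ends were 3 nt apart, and in Mbtd1 (119 and 35 against 90 and 29) they were 4 nt apart. The intervals of 3 of the 4 pairs overlapped. In the Bcl11b pair they did not, at 8.91 (5.55 to 15.2) and 3.97 (3.09 to 5.16). In each pair only 1 of the forms had both ends on annotated exon ends.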

How the data were processed

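For each of the 2 libraries the authors deposited 1 circRNA list with position, host gene, junction count, read count and RPM value. The deposited junction count, whole reads across the back-splice junction per the file headers, was the measure used. The deposited read count equals it for 67.3% and 74.4% of the 847 circRNAs and served as an alternative; how the authors assigned it was not given in the sources used here. Per the file headers the deposited RPM expresses this count per 1000000 reads, and their quotient gave library totals of 52636694 and 72271995 reads. The submitters' processing notes name mm9, FastQC and Trimmomatic 0.36, while the aligner and circRNA caller were not given in the sources used here. Starts of the 847 fell on GENCODE M21 (GRCm38) exon starts for 96.9% and ends on exon ends for 97.4%, against 0.945% of starts after a shift of 1 nt, so positions are given as GRCm38, counted from 1.

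The lists were joined on position, and a circRNA listed in 1 library only counted as 0 in the other. Junction totals of 156582 and 76331 scaled the reads. Ratios have exact conditional intervals and shares exact binomial intervals at 95%. Both mates of a pair of 150 nt can cover 1 junction in a fragment of about 200 bp, and counting them apart would make intervals too narrow. Past 2-fold counts as higher or lower and within 1.5-fold as near-equal. With 1 library a group no test was made. The interval and call code was checked on simulated data. Exons, spliced length and GC content came from the GENCODE transcript that holds both ends, and junction sequences from its transcripts.

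Named are the 8 circRNAs with the highest mean level, the 8 most stable, the 8 most shifted in each direction by interval bound, the 6 hosts with the most circRNAs, the 3 shortest and 3 longest spans, in each of the 19 host gene lists the 2 highest and the most shifted in each direction, hosts whose circles differ most, and the extremes at the minimum. A few were named after their values were seen: Tmem87b and Rras2 (shared top ranks), Foxp1, Ncoa6, Ppm1h and Zfp292 (circles past 2-fold both ways), Foxn3, Mbtd1, Phkb and the marker genes of the label check. Sequences were chosen among coding junctions of the same classes. The set of circRNAs and the lists were chosen with earlier results of these data known. Alternatives were other scalings (library totals, sums over the set, median-ratio size factors), the read count, other minimums, halved reads, other fold limits, sums per host gene and a looser exon match. Linear transcripts were not analysed here, and 1 host gene that the rule names is not reported here. Values were computed with Python 3.11.15, pandas 2.3.3, numpy 2.4.6 and scipy 1.17.1, and drawn with matplotlib 3.10.9.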

Additional observations from a re-analysis of the deposited data

How the results depend on the processing

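No paired analysis was possible because each group has 1 library, and no replicate could be left out. Against 117 higher, 231 lower and 323 near-equal circRNAs, library totals gave 482, 25 and 199, which follows from a shift of 1.49 applied to every log2 ratio. Median-ratio size factors gave 153 lower. A minimum of 5 reads gave 250 higher, 476 lower and 577 near-equal among 1602, a minimum of 20 gave 50, 90 and 155 among 373, and a minimum of 50 gave 15, 22 and 58 among 121, as fewer circRNAs pass. Halving all reads gave the counts of the minimum of 20. A limit of 1.5-fold gave 192 higher, and 3-fold gave 38 higher and 110 lower. At an equal scaled level in both libraries, an alternative chosen after seeing the data, 87 were lower. The SD of the log2 ratio, 1.18, became 1.39 with the deposited read count and 1.03 with the minimum of 50. The Spearman correlation of 0.50 became 0.597 with reads summed per host gene; the cause was not tested. The share of exonic ends (94%) and the median span moved little.

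Of 96 named circRNAs 46 had a ratio below 1, and 22 of these were above 1 with library totals. The 8 among them that had been at least 2-fold lower were Rabep1 exons 9 to 13 (1.29), Tns3 (1.13), Zmiz1 (1.19), Smad4 (1.26), Smad1 (1.04), Rbm4 (1.12), Elf2 (1.3) and the shorter Lin54 circle (1.29). With the read count Axin2 became 1.45 and Tns3 1.87. Pde5a, Etnk1, Ubac2, Ube2d2a, Zmiz1 (0.762) and the Rbm4 circle with 29 and 40 reads (0.708) came within 2-fold. Cep350 (0.162) and Tasp1 (0.255) went past 2-fold lower. Xpo1 (0.670) went below 1 but stayed within 2-fold, and the other 85 of the 96 kept their call. With sums over the set 1 lost a 2-fold call, and with median-ratio factors 5 did. A further 9 moved with median-ratio factors but stayed within 2-fold.

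Depth limited the set at its lower end: where each library holds 10 reads the ratio is 0.487 with an interval that includes 1.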

Other observations

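A few well covered circRNAs carried no gene name in the deposited lists. Of 6 on FANTOM transcripts, 1 covered exon 2 of Pvt1, a long non-coding RNA gene beside Myc, with 119 and 55 reads in the libraries labelled ISC and non-ISC and a ratio of 1.05. Another lay in Rbm39, which encodes a splicing coactivator, with 76 and 13 reads, a ratio of 2.85. Of the 5 without a host gene 4 could be placed on annotated genes (Lcor, Zfp141 and Srcap), and the fifth, with 80 and 15 reads and a ratio of 2.60, could not. The host listed as 9-Sep, a septin gene whose symbol reads as a date, had 16 and 65 reads, a ratio of 0.120.

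The deposited read count equalled the junction count in both libraries for 501 of the 847 circRNAs. It was above it in both for 148, in the library labelled ISC only for 129 and in the library labelled non-ISC only for 69. The largest count was 92.4 times the junction count in the first library and 63 times in the second.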
